A study of Mus musculus with 8 samples.

Results

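The acute phase reactants examined here are 10 genes for plasma proteins of the early response to injury and infection: the serum amyloid A genes Saa1, Saa2, Saa3 and Saa4, the orosomucoid genes Orm1 and Orm2, haptoglobin (Hp), lipocalin 2 (Lcn2), serum amyloid P (Apcs) and C-reactive protein (Crp). They were chosen by name, with earlier results of these data known. All 10 were measured by a probe set that the array's annotation assigns to exactly 1 gene, among 30627 such genes. Liver RNA came from 8 male C57BL/6 mice fed a high fat diet for 13 weeks, which raises blood cholesterol. Of these mice, 4 then received 5 intraperitoneal injections of anti-miR-128-3p, which inhibits a microRNA, miR-128-3p; the other 4 were controls, whose injection the labels call vehicle in one place and control in another. The age of the mice is not given in the sources used here, and miR-128-3p itself, not its inhibitor, is entered in one treatment entry, while the titles give the inhibitor, as does the design text. Titles were used to assign the mice. No group without the diet was analysed here, so all values refer to the livers of diet-fed mice. Each array was taken as 1 mouse, which the labels do not state outright. If arrays share a mouse, the spread between them is partly technical.

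The microRNA that the treatment is directed against is shown with its seed, bases 2 to 8, in capitals, because the seed is the part through which a microRNA recognises its targets. RefSeq lists the same mature sequence at 2 loci of the mouse assembly GRCm38.p6, chr1:128202404-128202424 on the plus strand and chr9:112118644-112118664 on the minus strand.

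mmu-miR-128-3p: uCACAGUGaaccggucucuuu

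The acute phase response is a programme of the hepatocyte. Interleukin-6, acting through the receptor subunit gp130 and STAT3, and interleukin-1 and tumour necrosis factor, acting through NF-kB and C/EBP factors, raise the transcription of a set of secreted proteins, while synthesis of albumin and some carriers is reduced. In mice Saa1 and Saa2 are the main inducible amyloid proteins of plasma, Apcs is a major reactant, and Crp is only weakly inducible, unlike its human counterpart. Saa4 is expressed constitutively, and Saa3 is made mainly by macrophages, adipocytes and other cells outside the hepatocyte. Lcn2 and Hp are made by hepatocytes and are also stored in neutrophil granules.

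The values are RMA log2 signals, so a difference of 1 is a 2-fold difference. The median signal of the 8 arrays was between 5.04 and 5.12, and arrays correlated with each other at r = 0.992 to 0.996 across genes. The signals of 8 members were above the 95th percentile of the arrays' negative control rows (7.40 to 7.53) in all livers, Lcn2 was above it in 6 livers and Saa3 in 0. The livers carried the markers of the labelled tissue: all 8 measured hepatocyte markers were above that level, and albumin (Alb) averaged 13.92 ± 0.04 over controls and 13.96 ± 0.05 over treated mice (log2, SD, n = 4 each). Of the 8, 7 had a lower treated mean and 0 passed the adjusted threshold by limma, and the list's median difference was -0.038, or -0.075 without control replicate 1. Hnf4a, a transcription factor of hepatocyte identity, differed by -0.24 ± 0.10 (limma adjusted p = 0.606). Control replicate 1 stood apart from the other 7 livers in several members. In control replicate 1, Saa2, Saa1 and Lcn2 ranked 6, 8 and 9 of 30627 genes by how far they exceeded the mean of the other 7 livers. Its neutrophil markers were also high, as given with the marker lists. Member differences, list medians and the correlations printed are therefore given with and without that liver. It was singled out after its values were seen, and leaving out each of the 8 livers in turn was done in the same way.

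With all 8 livers, 8 of the 10 members had a higher mean in treated than in control livers and 2, Saa4 and Crp, had a lower one, against 49.1% of all genes with a higher mean. None passed the test. At a limma adjusted p under 0.05, 0 members were called, against 0% of all genes. At an unadjusted p under 0.05 limma also counted 0 members, against 7.63% of all genes. The groups overlapped in all 10 members, against 4.41% of all genes whose groups did not overlap. The median log2 difference was 0.27 for the members and -0.0017 for all genes. The adjusted p-values by limma were between 0.660 (Saa3) and 0.977 (Lcn2), and exact two-sided permutation p-values were 0.114 (Saa3) or higher, where 4 against 4 allows no less than 0.0286.

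**Figure D1:**
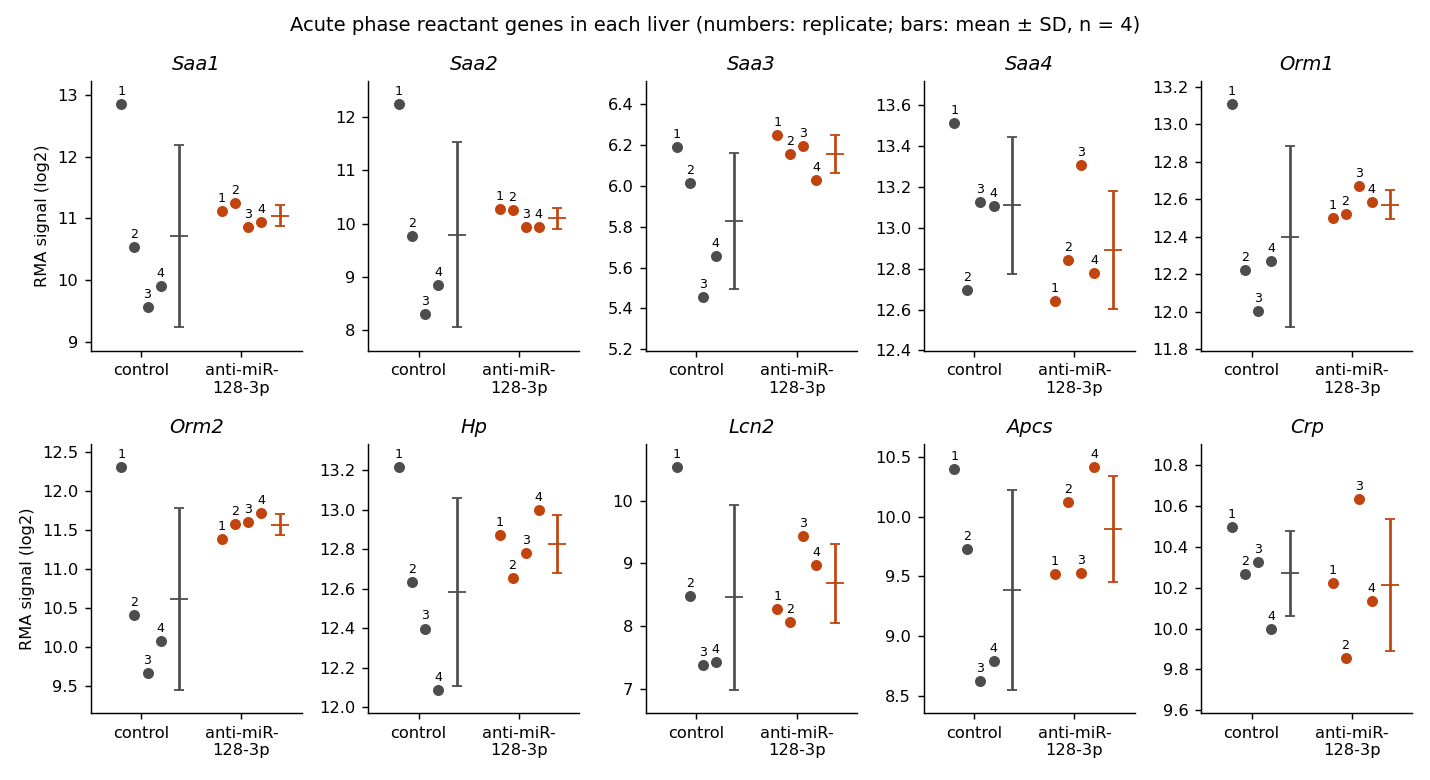
RMA log2 signal (vertical axis, scaled separately for each gene) of the 10 genes in the 4 control and 4 anti-miR-128-3p livers, with replicate numbers beside the points and the mean ± SD at the side of each group. Control replicate 1 was the highest of all 8 livers in 7 of the 10 genes and the highest control in all 10, while the treated values of Saa1, Saa2, Orm1 and Orm2 lay close together.

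Saa1 and Saa2 encode the acute phase apolipoproteins that replace other proteins on high density lipoprotein during inflammation. Saa1 was at 12.85, 10.53, 9.57 and 9.90 in control replicates 1 to 4 and at 11.13, 11.25, 10.86 and 10.95 in treated replicates 1 to 4 (log2 signal). Saa2 was at 12.24, 9.77, 8.31 and 8.86 in the controls and at 10.27, 10.26, 9.93 and 9.94 in the treated livers. In both genes all 4 treated livers lay between control replicate 1, which was above them, and the other 3 controls, which were below them. The difference for Saa1 was 0.33 ± 0.61 (log2, ± SE, limma adjusted p = 0.959), with a 95% interval from -1.06 to 1.72. For Saa2 it was 0.31 ± 0.72 (limma adjusted p = 0.971), with an interval from -1.32 to 1.93. Without control replicate 1 Saa1 was higher in treated livers by 1.05 ± 0.21, or 2.06-fold (limma unadjusted p = 0.00108, adjusted p = 0.339). Saa2 was then higher by 1.12 ± 0.30, or 2.17-fold (limma adjusted p = 0.386). Without control replicate 3, the lowest liver for both, the differences were -0.049 and -0.19, and without control replicate 4 the Saa2 difference was -0.0068.

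The windows upstream of Saa1 and Saa2 are shown because these genes varied together most closely. They are taken from RefSeq on GRCm38.p6, from 250 bases before to 50 bases after the gene's start, 5′ to 3′ along the gene. Capitals mark matches to the motifs searched. Over a global alignment of 301 columns the windows were identical at 287, or 95.3%. The genes themselves are near-identical paralogs that lie side by side, and RefSeq lists each one's symbol as an older name of the other, so a probe set of one may carry signal of the other and their values are not independent.

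Saa1 promoter window, chr7:46742931-46743230, minus strand: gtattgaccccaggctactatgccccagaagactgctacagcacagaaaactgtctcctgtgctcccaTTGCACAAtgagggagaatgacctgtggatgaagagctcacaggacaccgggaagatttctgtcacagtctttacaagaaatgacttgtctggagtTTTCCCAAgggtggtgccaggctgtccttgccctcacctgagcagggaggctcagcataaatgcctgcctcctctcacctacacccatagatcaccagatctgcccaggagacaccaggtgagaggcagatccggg

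Saa2 promoter window, chr7:46751583-46751882, plus strand: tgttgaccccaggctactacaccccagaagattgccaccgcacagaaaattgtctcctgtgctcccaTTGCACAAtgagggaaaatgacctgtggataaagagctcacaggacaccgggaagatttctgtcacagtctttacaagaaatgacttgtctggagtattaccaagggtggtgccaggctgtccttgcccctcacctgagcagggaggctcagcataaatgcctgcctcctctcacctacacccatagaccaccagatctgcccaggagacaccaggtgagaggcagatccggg

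Windows of the same kind were found for 8 of the 10 members. A C/EBP motif (TTNNGNAA, either strand) occurred in 7 of the 8, all except Apcs, against 40.7% of all 32851 windows. It occurred at 2 places in Saa1, of which the one nearer the start (TTTCCCAA) has no match in Saa2, and at 4 places in Saa3. The kappa B motif (either strand) occurred in 0 of the 8 against 18.4% of all windows, a STAT motif (TTCNNNGAA, either strand) and an IL-6 element (CTGGGAA, either strand) only in Apcs, against 8.30% and 11.1%, and a TATA box (TATAAA, along the gene only) in Orm2 and Crp, against 8.32%. No searched motif overlapped another in these 8 windows. The letters are a description of these windows and no binding was measured.

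Saa3 and Saa4 lie beside them but did not share their range. Saa3 was between 5.46 and 6.19 in control livers and between 6.03 and 6.25 in treated livers, a level no higher than the upper negative control rows. Its difference of 0.33 ± 0.15 had the smallest adjusted p of the members (limma adjusted p = 0.660, unadjusted p = 0.0517). The lowest treated liver (6.03) was above 3 of the controls, the highest of those being control replicate 2 at 6.02, and was below control replicate 1 at 6.19. Omitting control replicate 1, the difference was 0.45 ± 0.12 (limma adjusted p = 0.420). Saa4, the constitutive member, was at 13.51, 12.69, 13.12 and 13.11 in control livers and at 12.64, 12.84, 13.31 and 12.78 in treated livers, and differed by -0.22 ± 0.18 (limma adjusted p = 0.850). Its controls did not fall in the order seen for Saa1 and Saa2, since control replicate 2 was the lowest. Without control replicate 1 the difference for Saa4 was -0.083 ± 0.17.

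Macrophages, one source of Saa3, were followed through 12 markers. Of these, 11 had a higher treated mean, against 49.1% of all genes. The list had a median difference of 0.45 (0.46 without control replicate 1), and 0 passed the adjusted threshold by limma. The macrophage gene Mpeg1 differed by 0.80 ± 0.25 and the Kupffer cell gene Timd4 by 0.69 ± 0.30 (limma adjusted p = 0.473 and 0.646). With control replicate 1 left out, Mpeg1 differed by 1.03 ± 0.18 (limma unadjusted p = 0.000555, adjusted p = 0.322). It was then the 1 marker of the 12 whose groups did not overlap, against 4.66% of all genes with treated livers higher. The Kupffer cell genes Cd5l and Clec4f differed by 0.76 ± 0.35 and 0.50 ± 0.23 (limma adjusted p = 0.672 and 0.676). The list's mean gene-centred signal ran from -0.94 to 0.12 in control and from -0.33 to 0.74 in treated livers. It was lowest in control replicate 3, also the lowest liver for Saa3. Their part in the Saa3 values was not tested. All 6 measured adipocyte markers were at or below the upper negative control level in every liver. In tissue RNA, more cells of a type and more RNA per cell cannot be told apart.

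Orm1 and Orm2 encode orosomucoids, carrier proteins that bind lipids and drugs in plasma. Orm2 was at 12.31, 10.41, 9.67 and 10.07 in control replicates 1 to 4 and at 11.39, 11.57, 11.60 and 11.71 in treated replicates 1 to 4. All treated livers were again between control replicate 1 and the other controls, and the gap to the next control was wide. Orm2 had the largest difference of the members, 0.95 ± 0.48, or 1.94-fold (limma unadjusted p = 0.0803, adjusted p = 0.711, exact two-sided permutation p = 0.143, higher than the control mean in 4 of 4 treated livers). Leaving out control replicate 1, it was 1.52 ± 0.16, or 2.86-fold, with an interval from 1.14 to 1.89. Its limma p of 1.43e-05 was then the smallest of all 30627 genes, but it did not pass (adjusted p = 0.322, the smallest of any gene in that fit). Control replicate 1 was singled out for its high member values, and leaving it out lowered the control SD of Orm2 from 1.17 to 0.37. The rank in that fit follows in part from this choice. With all 8 livers Orm2 ranked 3446 by p. Without control replicate 3 the difference was 0.64. Orm1 was at 13.11, 12.22, 12.003 and 12.27 in the controls and at 12.50, 12.52, 12.67 and 12.59 in treated livers, with the same arrangement of livers. Orm1 differed by 0.17 ± 0.20 (limma adjusted p = 0.906), by 0.40 ± 0.08 without control replicate 1 (adjusted p = 0.322 by limma) and by 0.037 without control replicate 3. The orosomucoid genes are close paralogs too, so their probe sets may share signal. The Orm2 window, shown for its pair of C/EBP matches and its TATA box, had the following sequence.

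Orm2 promoter window, chr4:63362199-63362498, plus strand: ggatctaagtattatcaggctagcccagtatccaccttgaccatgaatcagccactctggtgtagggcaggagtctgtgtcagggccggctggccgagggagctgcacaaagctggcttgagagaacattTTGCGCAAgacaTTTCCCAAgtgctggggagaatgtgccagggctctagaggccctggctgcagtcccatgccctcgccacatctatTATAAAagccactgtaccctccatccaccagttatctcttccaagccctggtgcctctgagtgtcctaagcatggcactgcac

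Haptoglobin binds free haemoglobin. Hp was at 13.22, 12.63, 12.40 and 12.09 in the controls and at 12.87, 12.66, 12.78 and 13.00 in treated livers, so that the treated livers lay below control replicate 1 and above the rest, control replicate 2 by little. It differed by 0.24 ± 0.21 (limma adjusted p = 0.850), and by 0.45 ± 0.13 without control replicate 1 (limma adjusted p = 0.436). Without control replicate 4 the difference was 0.078. Lipocalin 2 sequesters bacterial siderophores. Lcn2 was at 10.54, 8.48, 7.38 and 7.43 in the controls and at 8.27, 8.06, 9.44 and 8.97 in treated livers, and here the treated livers did not all lie above the other controls, since control replicate 2 was above treated replicates 1 and 2. Its difference was 0.23 ± 0.66 (limma adjusted p = 0.977). Leaving out control replicate 1 gave 0.92 ± 0.38, leaving out replicate 3 gave -0.13, leaving out replicate 4 gave -0.12, -0.025 when treated replicate 3 was left out.

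Apcs and Crp encode the short pentraxins, which bind microbial and damaged cell surfaces. Apcs was at 10.40, 9.72, 8.62 and 8.79 in the controls and at 9.52, 10.12, 9.53 and 10.41 in treated livers, and treated replicate 4 was level with control replicate 1. It differed by 0.51 ± 0.39, or 1.42-fold (limma adjusted p = 0.831), by 0.85 ± 0.31 without control replicate 1 and by 0.26 without control replicate 3. Crp was between 9.996 and 10.49 in control and between 9.86 and 10.63 in treated livers. It differed by -0.058 ± 0.16 (limma adjusted p = 0.976), and by 0.017 without control replicate 1 and 0.061 without treated replicate 2. Crp was the only member whose treated livers were spread more widely than its controls.

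With control replicate 1 left out, 8 members, all but Saa4 and Crp, had an unadjusted p under 0.05 by limma and a higher treated mean, against 4.49% of all genes in that direction. In 6 of them, Saa1, Saa2, Saa3, Orm1, Orm2 and Hp, all 4 treated livers were above the 3 remaining controls, against 4.66% of all genes. At the adjusted threshold 0 members were called by limma, against 0% of all genes. Exact two-sided permutation p-values for these 6 were 0.0571, the smallest that 4 against 3 allows. Groups that do not overlap always give that value, so it adds nothing to the count of 6. The median difference of the members was 0.65, against 0.0061 for all genes. No label gives a reason to leave that liver out. It was singled out for its high member values, so leaving it out by itself moves these genes towards higher treated values and narrows their control spread. The shares of all genes beside these counts are therefore not a like comparison. Saa1 with Saa2 and Orm1 with Orm2 may also share signal, so the counts are not of independent genes. With control replicate 3 left out in place of control replicate 1, the median was -0.0015 and 5 members were higher. At an unadjusted p under 0.05 by limma, 1 member (Saa3) was counted without control replicate 2, against 7.95% of all genes. The count was 0 without control replicate 3 or 4, against 6.25% and 7.05%, and 0 without treated replicate 1, 2, 3 or 4, against 5.61%, 8.52%, 7.95% and 6.95%. Other fits of all 8 livers counted Saa3 alone: with trend and robust moderation, against 7.31% of all genes, with array weights, against 8.41%, and with the replicate number as a block, against 7.35%. A count of 1 in 10 is near those shares, and Saa3 was below the upper negative control level in every liver.

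**Figure D2:**
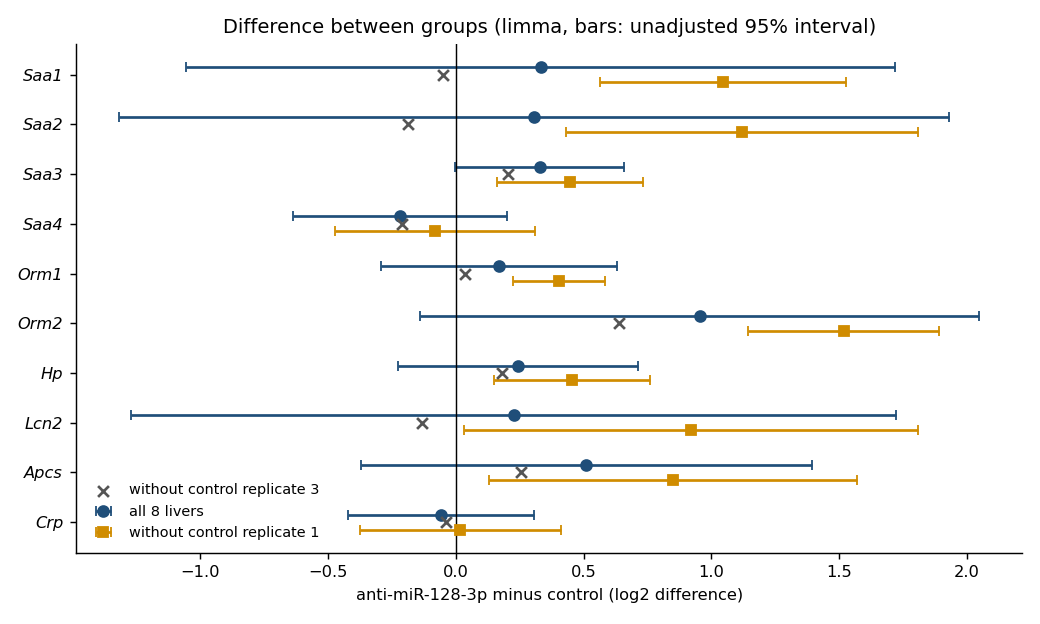
Log2 difference between anti-miR-128-3p and control livers (horizontal axis) for each gene, with unadjusted 95% intervals from limma, for all 8 livers (circles) and without control replicate 1 (squares), and the value without control replicate 3 (crosses). With all livers every interval includes 0. With control replicate 1 left out the intervals of 8 genes lie above 0, and without control replicate 3 the crosses, plotted with no interval, of Saa1, Saa2, Lcn2, Saa4 and Crp are below 0.

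The spread over livers was wider among controls for most members. The SD over control livers was larger than over treated livers in 9 of the 10 members, against 50.3% of all genes. It was at least 3 times larger in 6 members, Saa1, Saa2, Saa3, Orm1, Orm2 and Hp, against 5.88% of all genes and 14.3% of the 1595 genes with a control SD of at least 0.3. These thresholds were chosen after the values were seen, and the difference in spread was not tested. The SD of Saa2 was 1.74 in control and 0.19 in treated livers, that of Saa1 1.48 and 0.17, and that of Orm2 1.17 and 0.13 (log2 signal, n = 4 each). The control SD ranked 11 of 30627 genes for Saa2, 17 for Saa1, 19 for Lcn2 and 35 for Orm2. Control replicate 1 accounted for part of this. Over the other 3 controls the SD was 0.73 for Saa2, 0.49 for Saa1 and 0.37 for Orm2, still above the treated SD of each. It was also above the treated SD for Saa3, Orm1, Hp and Apcs. For Lcn2, Saa4 and Crp it was 0.626, 0.243 and 0.175, below the treated SD of 0.634, 0.288 and 0.322. Control replicate 1 exceeded the mean of the other controls 9.58-fold for Saa2, 7.22-fold for Saa1, 6.84-fold for Lcn2 and 4.78-fold for Orm2. It was the highest of the 8 livers in 7 members, against 16.6% of all genes, and the highest control in 10, against 32.1%. The lowest liver was control replicate 3 or 4 in 8 members, against 25% of all genes.

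**Figure D3:**
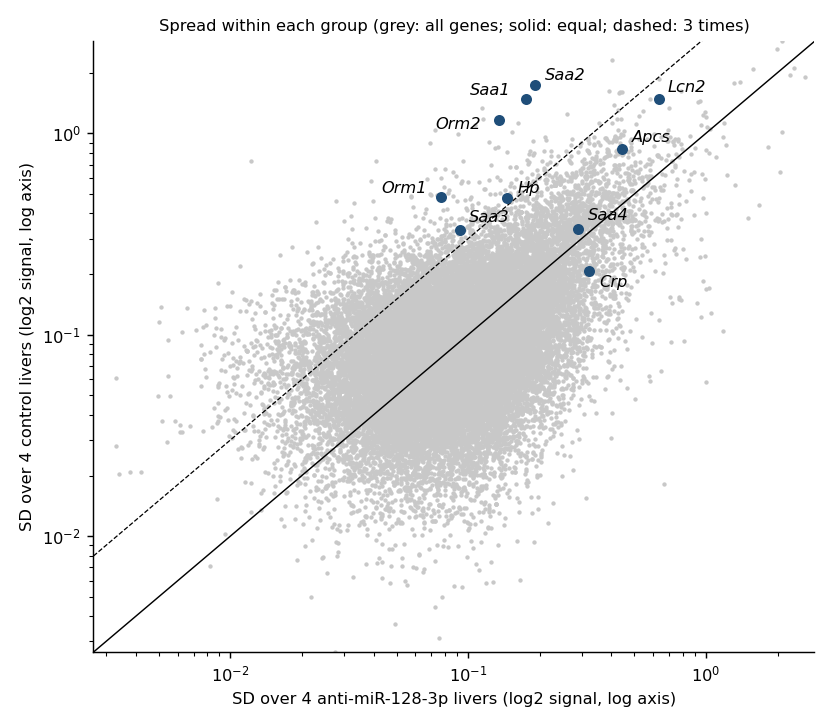
SD of the log2 signal over the 4 control livers (vertical, log axis) against that over the 4 anti-miR-128-3p livers (horizontal, log axis), for all 30627 genes (grey) and the 10 members (blue). The solid line marks equal SD and the dashed line a control SD 3 times as large. Saa1, Saa2, Saa3, Orm1, Orm2 and Hp lie above the dashed line, and Crp lies below the solid one.

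Most members varied together from liver to liver. Over the 8 livers, 43 of the 45 pairs had a positive Pearson r, and 22 had an adjusted p under 0.05 in exact permutation tests adjusted over the 45 pairs, but with Spearman's rho only 2 did. All these pairs are drawn from the same 10 genes and are not independent, and no share over other gene pairs is given here. The pairs called with both were Saa1 with Saa2 (r = 0.995, exact permutation p = 7.44e-05, adjusted p = 0.00335; rho = 0.976, exact permutation p = 0.000397, adjusted p = 0.0179) and Orm1 with Orm2 (r = 0.936, exact permutation p = 0.000446, adjusted p = 0.00642; rho = 0.952, exact permutation p = 0.00114, adjusted p = 0.0257). Without the pair of livers farthest from the median, control replicates 1 and 3, r was 0.980 and 0.932, and without control replicate 1 alone it was 0.987 and 0.959. Saa1 with Orm2 had r = 0.901 (exact permutation p = 0.000471, adjusted p = 0.00642) and rho = 0.810 (exact permutation p = 0.0218, adjusted p = 0.0817), with r = 0.893 without those livers and 0.940 without control replicate 1 alone. Saa1 with Lcn2 had r = 0.861 (exact permutation p = 0.00640, adjusted p = 0.0234) and rho = 0.595 (exact permutation p = 0.132, adjusted p = 0.220), with r = 0.470 without those livers and 0.657 without control replicate 1 alone, so that relation rested on them. Saa4 and Crp stood outside this pattern, with r = 0.316 and 0.264 to Saa1 (exact permutation p = 0.464 and 0.540, adjusted p = 0.597 and 0.640) and rho = 0.024 and -0.071 (exact permutation p = 0.977 and 0.882, adjusted p = 0.999 and 0.968). For these pairs r was -0.369 and 0.052 without control replicates 1 and 3, and -0.489 and -0.113 without control replicate 1 alone.

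Other positive acute phase genes had a smaller median difference than the members. Of 29 further positive reactants, 24 were measured, 14 of them higher and 10 lower in treated livers, with a median difference of 0.032 against -0.0017 for all genes, and 0 passed the adjusted threshold by limma. At an unadjusted p under 0.05 there were 2 of 24, against 7.63% of all genes, a share near the background. Mbl2, the mannose-binding lectin, differed by 0.28 ± 0.11, and Vnn1, a pantetheinase placed in this list that is also a PPAR-alpha target, by -0.91 ± 0.23, with no overlap between groups, as in 4.41% of all genes (limma adjusted p = 0.589 and 0.341). The next by p were the glycoprotein gene Lrg1 (-0.49 ± 0.24) and the endotoxin co-receptor gene Cd14 (0.21 ± 0.12). In 13 of the 24, control replicate 1 was the highest liver. Leaving it out, the median was 0.10, with 19 higher and 5 lower and 0 past the adjusted threshold by limma. At an unadjusted p under 0.05 by limma, 2 were then higher, against 4.49% of all genes in that direction. Another 3, Hamp, Hamp2 and Vnn1, were lower, a direction for which no share is given here. Named after their values were seen, Fgl1, a hepatocyte-secreted protein induced by IL-6, was at 11.65, 10.40, 9.28 and 9.71 in the controls and at 10.995, 10.21, 11.06 and 11.12 in treated livers. The fibrinogen genes Fga, Fgb and Fgg differed by -0.038, 0.030 and 0.035. Hamp, the gene of the iron hormone hepcidin and a STAT3 target, ran the other way in control replicate 1, with 7.05, 13.01, 11.40 and 13.20 in control and 7.85, 12.22, 10.42 and 8.02 in treated livers, and Hamp2 followed it. For Hamp the difference was -1.54 ± 1.45, and -2.91 ± 1.05 without control replicate 1.

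Negative reactants, the plasma proteins whose synthesis is reduced in the acute phase, had small differences. Of 15 listed, 14 were measured, 9 higher and 5 lower, with a median of 0.020 (0.016 without control replicate 1) and 0 past either threshold by limma, against 7.63% of all genes at an unadjusted p under 0.05. F12, coagulation factor XII, differed by 0.18 ± 0.08, the retinol carrier gene Rbp4 by -0.068 ± 0.05, Igf1 by -0.12 ± 0.10 and the corticosteroid carrier gene Serpina6 by 0.22 ± 0.18. The list's mean gene-centred signal was -0.054 in control replicate 1 and between -0.030 and 0.026 in the other controls.

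The cytokines, receptors and factors that drive the response were measured through 31 of 33 listed genes, of which 13 were higher and 18 lower, with a median of -0.021 and 0 past the adjusted threshold by limma. Leaving out control replicate 1 turned this to 16 higher and 15 lower, with a median of 0.033. Of the 31 genes, 18 were below the upper negative control level in every liver, among them Il6, Il1b and Socs3, so their differences are near the limit of the arrays. At an unadjusted p under 0.05 there were 2 of 31, both lower in treated livers, against 7.63% of all genes, so the count was not above the background. Il6st, which encodes the shared IL-6 receptor subunit gp130, averaged 10.18 ± 0.10 over the controls and 9.92 ± 0.09 over the treated mice (SD, n = 4 each), a difference of -0.26 ± 0.07 with no overlap between groups, as in 4.41% of all genes (limma adjusted p = 0.346). Bcl3, a nuclear partner of NF-kB, differed by -0.57 ± 0.18 (limma adjusted p = 0.464), and by -0.41 without control replicate 1. Il1rap and Nfkb2 differed by -0.14 ± 0.07 and 0.098 ± 0.06. Named after their values were seen, Il6 itself was listed between 2.90 and 3.07 in all 8 livers. In control replicate 1, 12 of the 31 genes were at their highest of the 8 livers. Socs3, the feedback inhibitor that STAT3 induces, was at 7.27 there and between 6.55 and 6.65 in the other controls, against 6.58 to 6.80 in treated livers. Il1b, also named in that way, was at 5.27 there, below the other 7 livers.

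**Figure D4:**
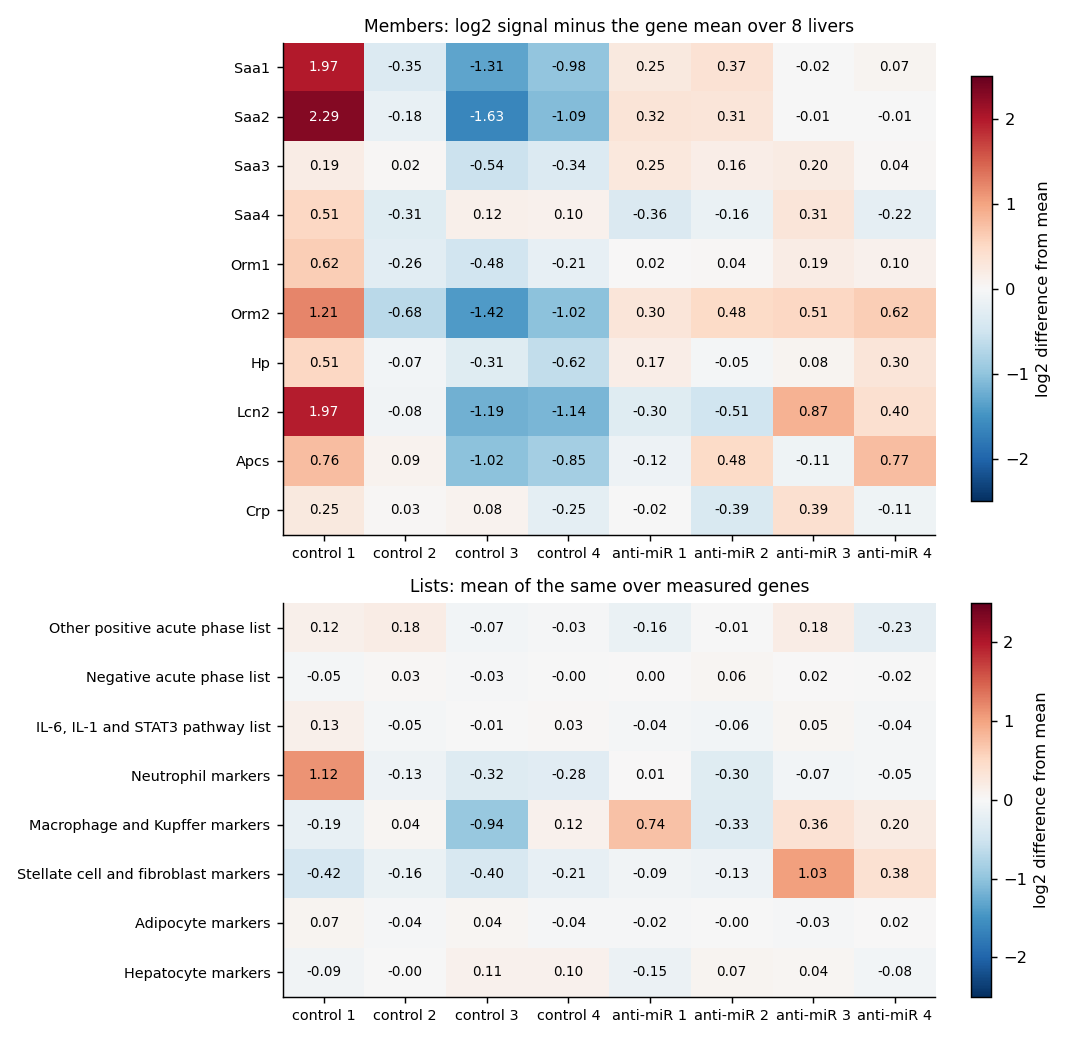
Log2 signal minus the gene's mean over the 8 livers for each of the 10 members (upper panel), and the mean of the same quantity over the measured genes of each list (lower panel), by liver. Control replicate 1 is the highest column for Saa1, Saa2, Orm2 and Lcn2 and for the neutrophil markers (1.12), and control replicates 3 and 4 are the lowest for Saa1, Saa2, Orm2, Lcn2 and Apcs.

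Neutrophils, which themselves carry Lcn2 and Hp, were followed through 15 markers, all measured, of which 13 stayed below the upper negative control level in every liver. Of the 15, 12 had a lower treated mean, and the median was -0.19, and 0 passed the adjusted threshold by limma. Csf3r, the receptor of the neutrophil growth factor, differed by 0.24 ± 0.13. The granule genes Mmp8 and Elane differed by -0.27 ± 0.24 each and Retnlg by -0.45 ± 0.42. The list's mean gene-centred signal was 1.12 in control replicate 1, between -0.32 and -0.13 in the other controls and between -0.30 and 0.01 in treated livers. In 13 of the 15 control replicate 1 was the highest liver. S100a8, a calcium-binding protein abundant in neutrophils and named after its values were seen, was at 8.38 there and at 3.45 to 4.70 in the other 7 livers. Across the 8 livers this neutrophil score correlated with Lcn2 at r = 0.856 (exact permutation p = 0.00387, adjusted over the 10 members p = 0.0273) and rho = 0.810 (exact permutation p = 0.0218, adjusted p = 0.109), at r = 0.658 without control replicates 1 and 3, and at r = 0.750 without control replicate 1 alone. For Hp r was 0.734 (exact permutation p = 0.0378, adjusted p = 0.0673), rho was 0.857 (exact permutation p = 0.0107, adjusted p = 0.107) and r was 0.746 without those livers and 0.776 without control replicate 1 alone. For Saa2, which is not a neutrophil marker, r was 0.875 (exact permutation p = 0.0103, adjusted p = 0.0273), rho was 0.762 (exact permutation p = 0.0368, adjusted p = 0.115), and r was 0.448 without those livers and 0.639 without control replicate 1 alone. By Pearson's r 4 of the 10 members had an adjusted p under 0.05 and by rho 0 did. The score was correlated with the members only, so no share over all genes is given and these counts are not particular to the members. The part of neutrophils in the member values was not tested. Without control replicate 1, all 15 neutrophil markers had a higher treated mean, at a median of 0.070 against 0.0061 for all genes. At an unadjusted p under 0.05 by limma 2 were counted, Prtn3 and Csf3r, against 4.49% of all genes in that direction. Both were below the upper negative control level in every liver, and 0 markers passed the adjusted threshold by limma.

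**Figure D5:**
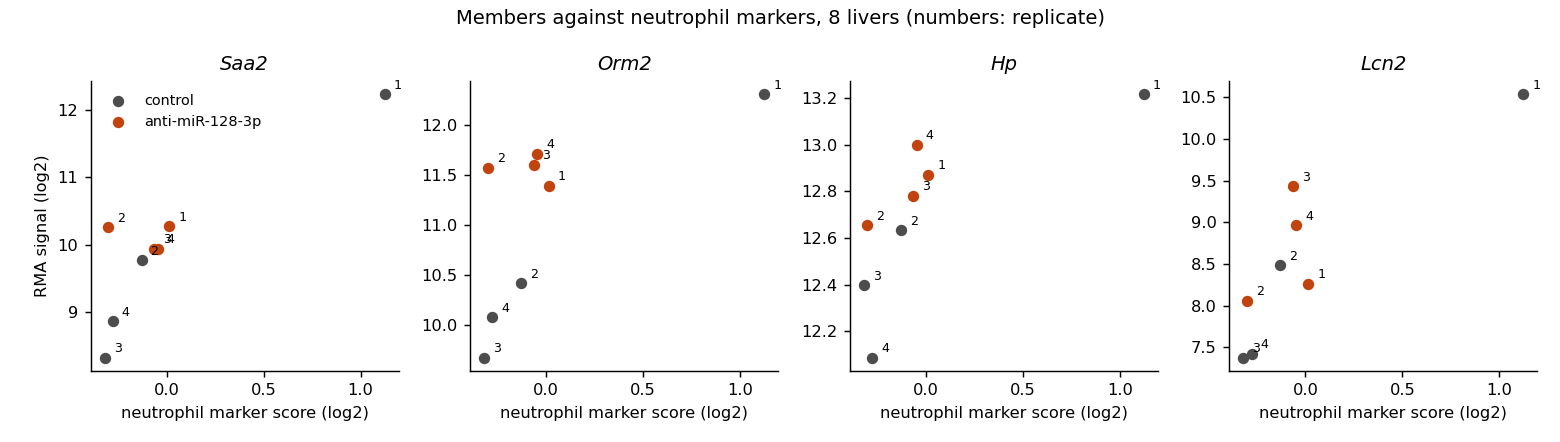
RMA log2 signal of Saa2, Orm2, Hp and Lcn2 (vertical) against the neutrophil marker score (horizontal, mean gene-centred log2 signal of 15 genes) in the 8 livers, with replicate numbers beside the points. Control replicate 1 is at the upper right of every panel with a score of 1.12. For Saa2, Orm2 and, by little, Hp, but not for Lcn2, all 4 treated livers lie above the other 3 controls. Treated replicates 1, 3 and 4 also have higher scores (-0.065 to 0.014) than those controls (-0.32 to -0.13), and treated replicate 2 (-0.30) does not.

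Stellate cell and fibroblast markers ordered the livers differently from the members. Of 9 measured, 6 had a higher treated mean, and the median was 0.65, or 0.66 without control replicate 1. The collagen genes Col1a1, Col3a1 and Col1a2 differed by 1.62 ± 0.41, 1.22 ± 0.35 and 1.45 ± 0.44, and the stellate cell gene Reln by -0.29 ± 0.09 (limma adjusted p from 0.342 to 0.455). The list's score was lowest in control replicate 1 (-0.42) and highest in treated replicate 3 (1.03). Their part in the member values was not tested.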

How the data were processed

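Liver RNA from 4 control and 4 anti-miR-128-3p mice was measured on 8 Affymetrix arrays, from 250 ng of total RNA each per the labels' protocols. The authors deposited log2 values made with RMA, per the submitters' processing notes. RMA corrects background, quantile-normalizes the arrays and summarises probes, so small differences at dim genes are compressed. The software version is not given in the sources used here. Depth does not apply to arrays: their number limits precision. Of 72688 rows, 6732 array controls were left out, and 31080 probe sets naming exactly 1 gene gave 30627 genes, each represented by its brightest probe set on average. Symbols were updated through a RefSeq table of GRCm38.p6. The build behind the array's annotation is not given in the sources used here. Groups were compared with limma (version 3.58.1, under R 4.3.3; functions lmFit and eBayes, two-sided, no filter, no covariate) with Benjamini-Hochberg adjustment over all 30627 genes at 0.05, after a test on simulated data. The members, lists and alternatives were chosen with earlier results of these data known. All 10 members are named, with up to 4 genes of each list by smallest p and the 6 protein-coding genes most like the members' mean. List scores are means of gene-centred signals. Python 3.11.15 with scipy 1.17.1 gave the exact permutation tests. Alternatives were moderation with trend and robust fit, array weights, a filter on dim genes, averaging probe sets, repeated quantile normalization, median centring, the replicate block and leaving out each liver. A planned comparison of protein sequences was not run, and a few genes of the lists are not analysed here.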

Additional observations from a re-analysis of the deposited data

Results flagged for a closer look

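Of 38 sets of 4 livers examined for a sample far from the others, 1 stood out. The neutrophil marker score of control replicate 1, at 1.12, was separated from the next control by 0.868 of the whole range of the controls, above Dixon's 95% critical value for 4 samples. Chance gives about 1 such flag in 20 sets. None of the 10 acute phase genes reached that value in either group, since the other 3 controls were spread out as well.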

How the results depend on the processing

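With 4 livers in a group, 1 liver decided the direction or size of most member differences, and dim signals such as Saa3 limit what an array shows. No member was called at an adjusted p under 0.05 by limma under any of the 15 settings (smallest 0.322). Moderation with trend and robust fit, array weights and the replicate block gave 1 member each at an unadjusted p under 0.05, Saa3 every time, instead of 0, which is near the share of all genes. In 142 of the 150 combinations of member and setting the direction and call were kept. The 8 reversals all came from leaving out 1 liver: Saa1 at -0.049, Saa2 at -0.19 and Lcn2 at -0.13 without control replicate 3, Saa2 at -0.0068 and Lcn2 at -0.12 without control replicate 4, Lcn2 at -0.025 without treated replicate 3, and Crp at 0.017 without control replicate 1 and 0.061 without treated replicate 2. Leaving out each liver in turn gave ranges of -0.049 to 1.05 for Saa1, -0.19 to 1.12 for Saa2, -0.13 to 0.92 for Lcn2 and -0.20 to 0.061 for Crp. Under the same omissions Orm2 ran from 0.64 to 1.52, the count at an unadjusted p under 0.05 from 0 to 8, the count without overlap from 0 to 6, and the members' median from -0.0015 to 0.65. Without control replicate 2 the single member counted was Saa3. No pairing of the livers by replicate number was seen: correlations of same-numbered deviations from the group means were -0.03, -0.02, -0.08 and -0.12. Such values do not settle whether the numbers pair the livers in some other way. The cause of each change was not tested.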

Other observations

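Some genes outside the acute phase lists had signals ordered over the livers like those of the members. Among 18200 other protein-coding genes, the 6 whose signal correlated most with the members' mean gene-centred signal over the 8 livers were Tmem176a (r = 0.981), Pnpla3 (0.974), Zfp560 (0.971), Ostm1 (0.967), Stxbp6 (0.962) and Stfa2l1 (0.961). Tmem176a, a membrane protein gene, was at 10.66 in control replicate 1 and between 9.44 and 10.19 in the other livers, and its r without that liver was 0.957. The other 5 were below the upper negative control level in every liver: Pnpla3, a lipase gene linked to fatty liver, was at 4.37 in control replicate 1 and between 4.14 and 4.28 elsewhere. Only Tmem176a of these 6 was thus above that upper level, in all 8 livers. These are the highest of many correlations over 8 livers that share control replicate 1, and are given as a description.

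Other genes high in control replicate 1, named after their values were seen, included few that were above the upper negative control level on both sides. S100a8 was at 8.38 there and S100a9 at 8.08, and both were below that level in the other 7 livers (3.45 to 4.70 and 4.67 to 5.80), so the size of these differences is not measured. Cxcl1, a neutrophil chemokine gene, was at 9.16 there and between 5.68 and 7.68 in the others, with 3 livers above that level. Mt2, a metallothionein gene also in the positive acute phase list, was at 13.23 there and between 10.65 and 12.72 in the others, with all 8 livers above it. The mucosal defence gene Dmbt1 was at 8.01 there, but another liver reached 9.16. Ngp (6.96), Sult2a7 (6.41) and Sult1e1 (5.23) were below the negative control level even in control replicate 1.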
